A study of Mus musculus with 13 samples.

Results

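The genes described here code for enzymes that modify drugs, steroids, alcohols, aldehydes and esters without a cytochrome P450: the alcohol dehydrogenases (Adh), the aldehyde dehydrogenases (Aldh), the aldehyde oxidases (Aox), the aldo-keto reductases of the Akr1 family, the carboxylesterases (Ces) and the flavin-containing monooxygenases (Fmo). They were chosen by symbol, and a gene had to reach 10 counts in at least 2 libraries. Among the 27141 genes counted, 65 had such a symbol, and 53 of these passed the count rule: 4 Adh, 14 Akr1, 17 Aldh, 3 Aox, 5 Ces1, 5 Ces2 and 5 Fmo genes. The other 12 were Akr1c21, Aldh3a1, Aldh3b3, Aox2, Ces1a, Ces1b, Ces1h, Ces2b, Ces2h, Ces3a, Ces3b and Fmo6. Just outside the rule, Aox2 reached 12 counts in 1 library and Ces3a 14 in 1 library, and just inside it Ces1f had 40, 29 and 56 counts in 3 libraries. All 53 members also passed the filter for low counts in the test.

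RNA-seq was performed on damaged hepatocytes (dHeps), which are hepatocytes isolated by collagenase perfusion from livers of wild-type mice injured with carbon tetrachloride (CCl4), a liver toxin. All groups shared this injury and were then kept for 16 days in serum-free Hepatocyte Maintenance Medium (Lonza). DMSO, the solvent control, was compared with 5C, a cocktail of 5 compounds: forskolin (F), an activator of adenylate cyclase, GSK429286A (G), which inhibits the kinase ROCK, CID755673 (C), which inhibits protein kinase D, ETC-1002 (E), which activates AMPK, and Salidroside (S), a plant glycoside. The groups named 5C-G, 5C-C, 5C-E, 5C-F or 5C-S lacked the compound named after the hyphen, which asks what each compound adds to the effect of the cocktail. There were 2 libraries in each group, called A and B, but 1 for 5C-S, so 5C-S was not tested. Mice of both sexes were used in the study. The labels give no age, and the study's methods give one for its tdTomato reporter mice. Those methods call replicates biological and separate throughout, without saying for these libraries whether mice or cultures were separate, so p-values measure the spread between these libraries.

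In the liver these families share the work of the second line of drug metabolism beside the P450 enzymes. Carboxylesterases split ester drugs and stored lipid esters in the endoplasmic reticulum. Flavin monooxygenases add oxygen to nitrogen and sulphur atoms, alcohol and aldehyde dehydrogenases oxidise ethanol, retinol and the aldehydes of lipid breakdown, and aldo-keto reductases run carbonyl groups of sugars, aldehydes and steroids in the opposite direction. High levels of many of them are a mark of mature hepatocytes.

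Total counts per library ran from 30195867 to 45491932. The labelled cell type was checked with hepatocyte markers, of which 7 of 8 were found (Tf matched no symbol): their summed level, in FPKM (fragments per kilobase of transcript, scaled to the library total), was 10700 to 11900 in DMSO, 11200 to 11300 in 5C, 6730 to 8180 in 5C-G, 5430 to 5850 in 5C-C, 3520 to 4000 in 5C-E, 17700 to 22100 in 5C-F and 7580 in 5C-S. Alb was the largest part of this sum in every library, with 9440 and 9430 FPKM in 5C and 3430 and 2550 in 5C-C. The hepatocyte markers did not all follow it. In 5C-C, Ambp, Apoa1 and Fgb lay above 5C in both libraries, while Alb, Ttr, Serpina1e and Hnf4a lay below. Macrophage markers were present in every group as well, and the sum of 8 of them was 2280 to 2310 FPKM in DMSO, 266 to 283 in 5C, 2670 to 4200 in 5C-G, 632 to 1090 in 5C-C, 386 to 492 in 5C-E, 842 to 1100 in 5C-F and 346 in 5C-S. Clec4f, a marker of resident Kupffer cells among them, stayed below 1 FPKM and was at 0 in 3 libraries. Of the other markers in that sum, Vsig4 stood at 21.0 to 172 FPKM and Marco at 1.27 to 36.7. In cultures measured in bulk, fewer cells of a type and less RNA per cell cannot be told apart.

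A member was called higher or lower where the adjusted p (edgeR's quasi-likelihood test, Benjamini-Hochberg over all 19884 genes tested) was under 0.05 and the log2 fold change beyond 1. Relative to DMSO, 5C raised 9 of the 53 members, among them Ces1c, Ces1d, Ces1g and Ces2a, and lowered 1. These are 17.0% and 1.89% of the members, beside 1.66% of all genes called higher and 2.89% called lower. Their median log2 fold change was 0.39, beside 0.01 over all genes tested. Macrophage markers moved with this comparison, 7 of 8 being lower in 5C, as did Des (lower) and Lrat (higher) of the stellate cell markers and Epcam (higher) of the cholangiocyte markers, and their part in the result was not tested. Without 1 library the number of members called higher lay between 6 (without DMSO A or without DMSO B) and 7 (without 5C A or without 5C B).

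When G, C or E was left out of 5C, more members were called lower than higher, and without F the counts were close. In 5C-G, 20 members were lower than in 5C and 1, Aldh3b1, was higher. This is 37.7% lower, where 5.64% of all genes were called lower and 7.47% higher, and the median over the members was -0.99, beside -0.01 over all genes. In 5C-C, 19 members (35.8%) were lower and 3 higher, beside 10.5% and 9.65% of all genes, and the median was -0.92 against 0.00. In 5C-E, 15 members (28.3%) were lower, beside 1.31% of all genes. None was called higher by edgeR, DESeq2 or limma, where 0.654% of all genes were, although 3 members had a higher value at an unadjusted p under 0.05. The median over the members in 5C-E was -0.51 against 0.01. In 5C-F, 4 members were lower and 3 higher (7.55% and 5.66%), beside 2.15% and 2.69% of all genes, with a median of -0.15 against -0.01.

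All these comparisons share the 5C libraries. Macrophage markers were called higher for 7 of 8 genes in 5C-G and 5C-F and for 4 of 8 in 5C-C, and their part in these results was not tested. In 5C-E no macrophage marker was called, with a median log2 fold change of 0.29. Of the 7 hepatocyte markers, Fgb and Hnf4a were called lower and Apoa1 higher in 5C-G, Alb lower in 5C-C, Alb and Ttr lower in 5C-E (-2.03 and -1.61), and Apoa1, Serpina1e and Ttr higher in 5C-F. Of 8 stellate cell and fibroblast markers, Des was higher in 5C-G, 5C-C and 5C-E (2.64, 1.25 and 1.05), Lrat lower in 5C-G and 5C-C, and Col1a2 lower in 5C-F. Of 6 endothelial markers, Kdr was higher in 5C-E (1.11), while in 5C-G Eng was higher and Kdr and Tek were lower. Of 6 cholangiocyte markers, Epcam and Sox9 were lower in 5C-G, and Krt19 was higher in 5C-C and 5C-F. The part of these markers was not tested either. Fold changes over all genes also followed the GC content of the transcripts (Spearman's rho across 19787 genes, which are not independent, from -0.18 in 5C against DMSO to 0.39 in 5C-C against 5C). Corrected for GC content and transcript length by an offset, a setting chosen after the data had been seen, the members called lower numbered 13 without G, 16 without C, 13 without E and 4 without F. The count in 5C-G was also 13 without 5C-G B, and that in 5C-E was 9 without 5C B and 8 without 5C-E B. In 5C-F both counts moved with single libraries: 1 member was higher without 5C A or without 5C B, and 2 were lower without 5C A, 5C B or 5C-F B. Without 5C-F B the higher members, 3, outnumbered the lower. Scaling by total counts alone in place of TMM factors shifted the median of all genes by -0.129 in 5C-G and by -0.147 in 5C-C.

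**Figure D1:**
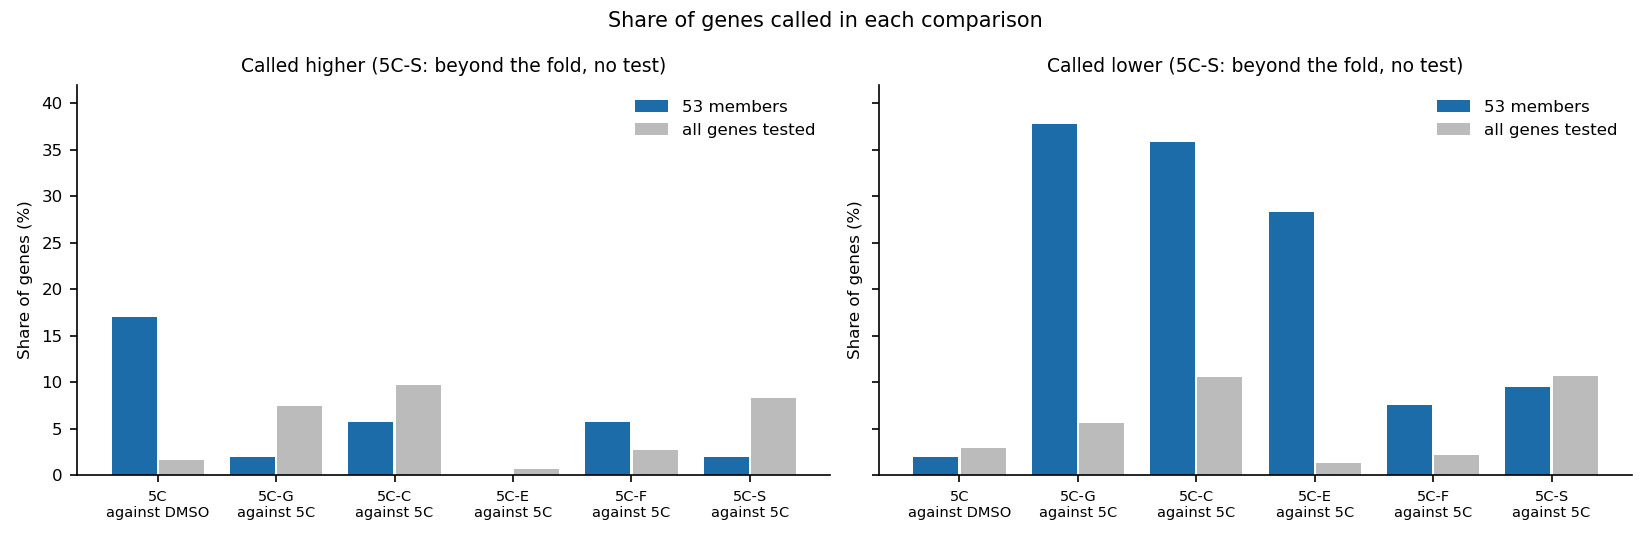
Share of genes (%, from 0) called higher (left) and lower (right) in each of the 6 comparisons, for the 53 members (blue) and all 19884 genes tested (grey); 5C-S, with 1 library, shows genes beyond a log2 fold change of 1 with no test. The blue bars stand highest for genes lower in 5C-G (37.7%), 5C-C (35.8%) and 5C-E (28.3%).

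**Figure D2:**
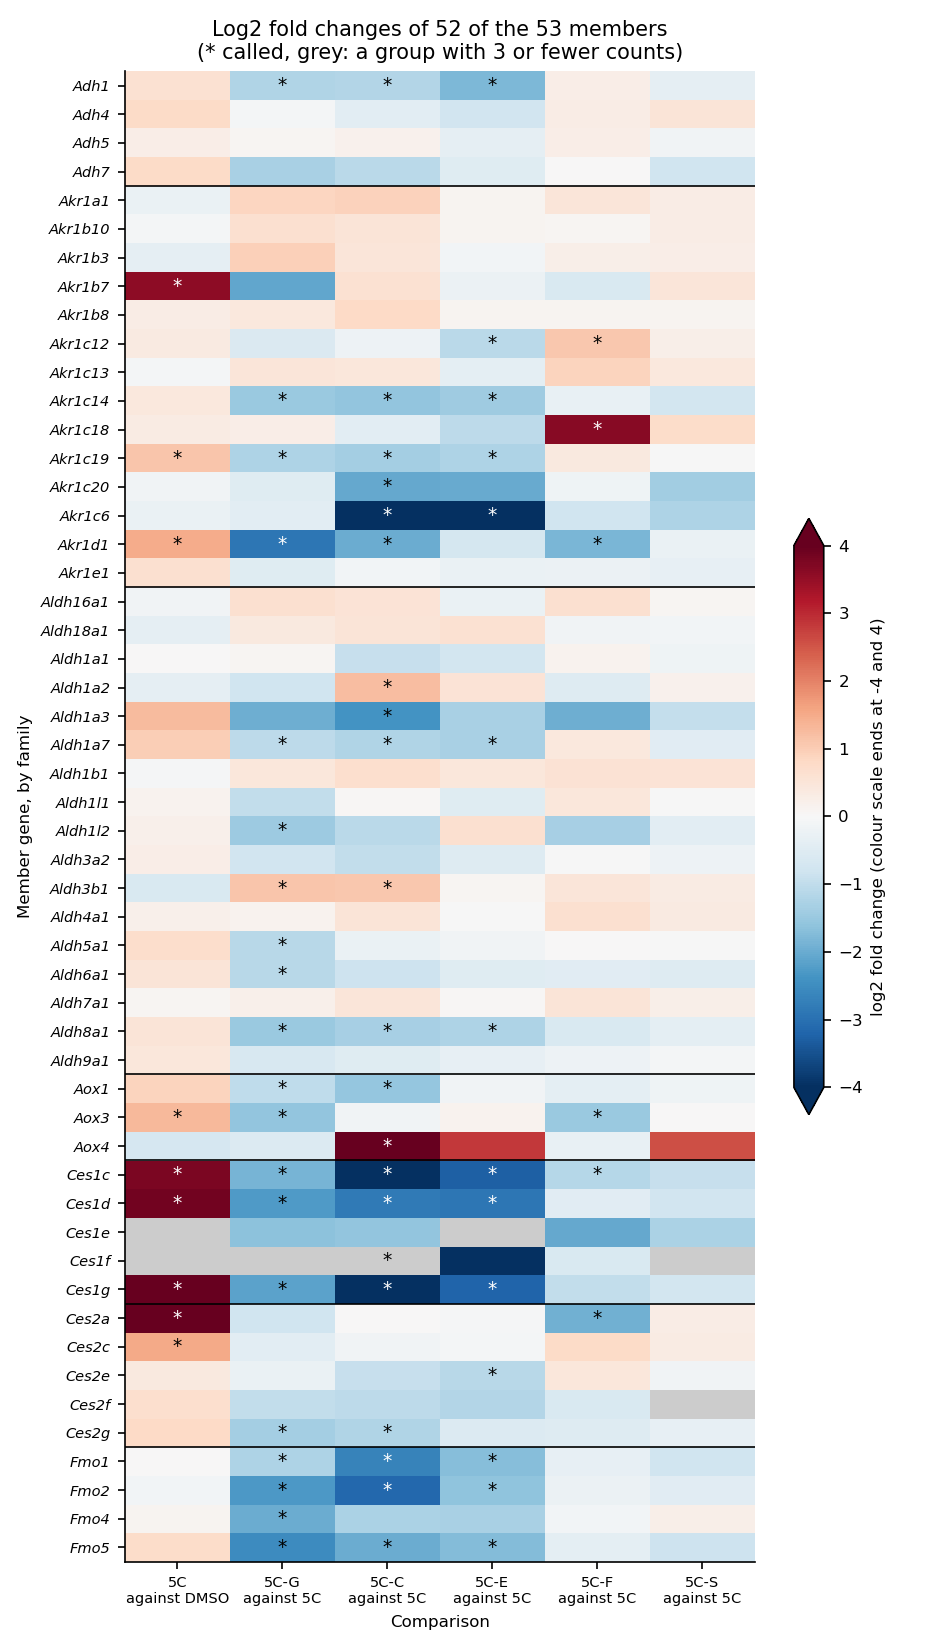
Log2 fold changes of 52 of the 53 members (rows, by family) in the 6 comparisons (columns); red is higher and blue lower in the first-named group, the colour scale ends at -4 and 4, an asterisk marks a call, and grey cells are genes with 3 or fewer counts in every library of a group. The Ces1 rows, where not grey, and the Fmo rows are blue in 5C-G, 5C-C and 5C-E, while Ces2a, red in 5C, has a called blue cell in 5C-F alone among the removals.

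The Ces1 genes had the largest median change of the 7 families in every comparison. The median log2 fold change was 4.44 in 5C against DMSO. Against 5C it was -2.14 without G, -4.0 without C, -3.28 without E, -0.98 without F and -0.93 without S. These medians take in Ces1e and Ces1f, whose fold changes rest on few counts (below). In 5C against DMSO, Ces1c, Ces1d and Ces1g were at 3.76, 3.86 and 4.44. The 5 Ces1 genes lie side by side on the minus strand of chromosome 8, from Ces1c at chr8:93825643-93857942 to Ces1g at chr8:94028683-94063953 (GRCm39). Their summed level was 4.11 and 2.74 FPKM in DMSO and 49.8 and 54.7 in 5C, then 12.7 and 10.5 in 5C-G, 4.10 and 4.67 in 5C-C, 6.90 and 5.75 in 5C-E, 29.8 and 26.4 in 5C-F, and 29.2 in 5C-S. Genes of such a cluster can share reads where their transcripts are alike, which was not measured here. How shared reads were counted was not given in the sources used here.

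Ces1c, which codes for the carboxylesterase secreted into mouse plasma, stood at 2.13 and 1.53 FPKM in DMSO and at 24.2 and 28.3 in 5C. Its levels were 7.60 and 5.76 in 5C-G, 1.05 and 1.83 in 5C-C, 3.46 and 2.19 in 5C-E, 12.2 and 9.98 in 5C-F, and 13.9 in 5C-S. Both 5C libraries lay above every other library, and the 5C-C libraries overlapped with DMSO. The log2 fold change was 3.76 ± 0.31 (SE) in 5C against DMSO (adjusted p = 4.37e-07). It was -4.0 ± 0.32 in 5C-C (adjusted p = 8.91e-07), -3.28 ± 0.31 in 5C-E (adjusted p = 6.19e-06) and -1.85 ± 0.29 in 5C-G (adjusted p = 0.000228). The smaller fall in 5C-F, -1.14 ± 0.28 (adjusted p = 0.0176), lost its call without 5C A, 5C B or 5C-F B, where the log2 fold change was -1.26, -0.99 and -0.96 (adjusted p of 0.0704, 0.163 and 0.141).

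Ces1d, a triacylglycerol hydrolase that mobilises stored lipid for secretion, had 1.82 and 1.07 FPKM in DMSO and 21.8 and 22.5 in 5C. It reached 4.41 and 3.95 in 5C-G, 2.80 and 2.79 in 5C-C, 3.23 and 3.01 in 5C-E, 15.9 and 14.6 in 5C-F, and 13.2 in 5C-S. Both 5C libraries lay above every library of the other groups, 5C-F and 5C-S came next, and the 5C-G, 5C-C and 5C-E libraries lay between it and DMSO. The log2 fold change was 3.86 ± 0.26 in 5C against DMSO (adjusted p = 3.37e-08), then -2.27 ± 0.24 in 5C-G, -2.82 ± 0.24 in 5C-C and -2.90 ± 0.24 in 5C-E (adjusted p of 4.88e-06, 1.63e-06 and 2.66e-06). In 5C-F it was -0.44 ± 0.22 (adjusted p = 0.227).

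Ces1g, an esterase tied to lipid handling in the liver, was scarcer: 0.137 and 0.134 FPKM in DMSO, 2.99 and 3.29 in 5C, 0.599 and 0.688 in 5C-G, 0.207 and 0.513 in 5C-E, 1.69 and 1.27 in 5C-F, and 1.89 in 5C-S. In 5C-C it had 0 and 6 counts (0 and 0.0551 FPKM), against 240 and 241 counts in 5C. It was thus nearly lost in 5C-C, at or below the DMSO level in both libraries. Fold changes on the log2 scale were 4.44 ± 0.65 in 5C (adjusted p = 0.000183), -6.40 ± 0.75 in 5C-C (adjusted p = 2.39e-05), -3.20 ± 0.59 in 5C-E (adjusted p = 0.00496) and -2.14 ± 0.56 in 5C-G (adjusted p = 0.00989). The size in 5C-C rests on very few counts. The calls in 5C-E and 5C-G just missed the threshold without 5C B (adjusted p of 0.0555 and 0.0585), as did that in 5C-E without 5C-E A (adjusted p = 0.0782) and that in 5C-G without 5C-G B (adjusted p = 0.0517).

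The last members of the cluster, Ces1e and Ces1f, were found at a few counts. Ces1f, another lipid hydrolase, had 40 and 29 counts in 5C and 0 in both libraries of DMSO, 5C-G and 5C-C, and 2 in 5C-S. It met the rule of 10 counts in at least 2 libraries through 5C A, 5C B and 5C-F B alone. Its higher level in 5C, and its place among the 19 members called lower in 5C-C, are thus tied to how members were chosen. Ces1f was at least 10.5-fold higher in 5C than in DMSO, computed against a floor of 3 counts per library, and at least 11.1-fold lower in 5C-G and 9.80-fold lower in 5C-C. Only the last was called (adjusted p = 0.0378), and it lost the call without any 1 of the 4 libraries (adjusted p of 0.0990, 0.0817, 0.102 and 0.148 without 5C A, 5C B, 5C-C A and 5C-C B) and with DESeq2 (0.265). The 5C-F libraries disagreed, with 0 counts in A and 56 in B, and the 5C-E libraries had 0 and 4. Ces1e, which holds beta-glucuronidase in the endoplasmic reticulum, had 33 and 22 counts in 5C and 2 and 0 in DMSO, a ratio of 27.5 with a counting interval of 7.26 to 233, and was called in no comparison. Such intervals and floors cover counting error only.

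**Figure D3:**
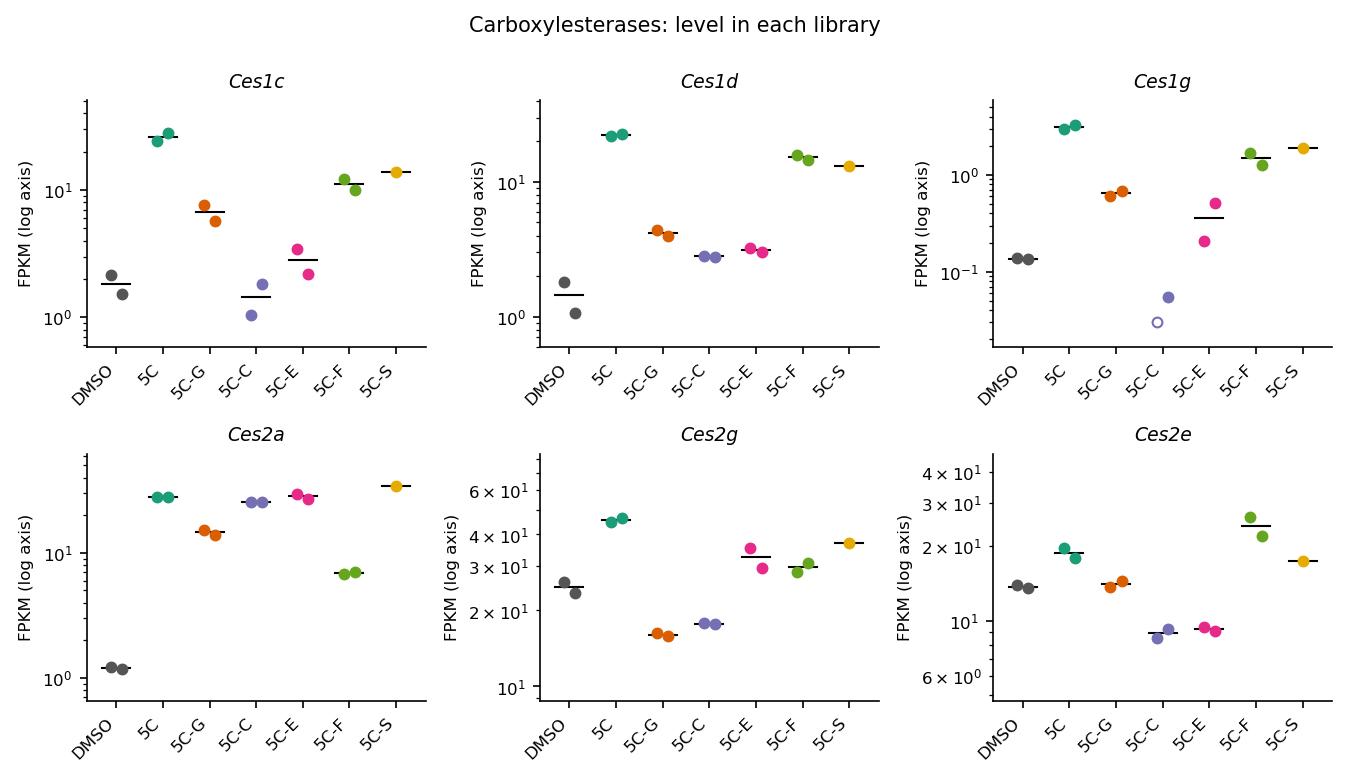
FPKM (log axis) of 6 carboxylesterase genes in each of the 13 libraries, by group; points are libraries, bars are group means, and the open point of Ces1g is a library with 0 counts drawn at the foot of the axis. Ces1c, Ces1d and Ces1g are highest in 5C and low in DMSO, 5C-G, 5C-C and 5C-E, whereas Ces2a stays at 25.4 FPKM or above in 5C-C, 5C-E and 5C-S and drops to 6.74 and 7.07 in 5C-F.

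The Ces2 genes form a second row on chromosome 8, on the plus strand, from Ces2a at chr8:105460630-105468266 to Ces2g at chr8:105688346-105696169 (GRCm39), and their values differed from those of Ces1. Ces2a, which like its neighbours splits drug esters and acylglycerols, was at 1.22 and 1.18 FPKM in DMSO and 27.9 and 27.8 in 5C. It remained at 25.5 and 25.4 in 5C-C, 29.8 and 26.9 in 5C-E and 34.4 in 5C-S, was at 15.3 and 13.8 in 5C-G, and fell to 6.74 and 7.07 in 5C-F. The rise in 5C was 22-fold (log2 4.46 ± 0.20, adjusted p = 4.15e-10). Leaving out forskolin gave a log2 fold change of -1.91 ± 0.17 (adjusted p = 1.94e-05), and both 5C-F libraries lay above DMSO and below all other groups. The values against 5C were -0.80 ± 0.17 in 5C-G (adjusted p = 0.00205, short of the fold threshold), 0.03 ± 0.16 in 5C-C (adjusted p = 0.903) and -0.05 ± 0.16 in 5C-E (adjusted p = 0.948). Both calls of Ces2a held under all 11 alternatives, with a log2 fold change of 3.71 to 4.54 in 5C and -2.16 to -1.87 in 5C-F.

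The 250 bases before the start of Ces2a are shown because the gene had the strongest rise of the Ces2 row and fell without forskolin. They come from RefSeq (GRCm38.p6, chr8:104733753-104734002, plus strand), and capitals mark AGGTCA, the half-site bound by many nuclear receptors, which was searched on both strands.
Ces2a: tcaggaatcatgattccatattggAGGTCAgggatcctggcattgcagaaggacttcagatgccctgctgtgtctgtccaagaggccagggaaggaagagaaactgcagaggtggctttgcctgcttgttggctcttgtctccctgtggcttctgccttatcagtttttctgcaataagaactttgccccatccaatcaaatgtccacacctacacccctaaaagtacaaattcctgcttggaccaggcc
This motif was found in 14.0% of the 32851 upstream windows of that length, some genes having several, and in 10 of the 48 windows of members (20.8%). They belong to 10 of the 44 members with a window: Adh4, Akr1b10, Akr1b7, Akr1d1, Aldh1l1, Aldh3b1, Aldh6a1, Ces2a, Fmo2 and Fmo4, with Aldh6a1 and Fmo2 holding it in 1 of their 2 windows. TGACG, the half-site of cAMP response elements, was in 17.8% of all windows and in 7 of those of members (14.6%), from 7 of the 44 members, Adh5, Aldh3b1, Aldh5a1, Aox3, Aox4, Ces2c and Fmo4, and not in the window of Ces2a. A match is a run of letters and does not show that a factor binds there.

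Among the other Ces2 genes, Ces2g was the most abundant, with 26.0 and 23.5 FPKM in DMSO, 44.7 and 46.4 in 5C, 16.3 and 15.8 in 5C-G, 17.8 and 17.7 in 5C-C, 35.5 and 29.5 in 5C-E, 28.5 and 30.9 in 5C-F, and 37.0 in 5C-S. Both 5C libraries were the highest and the 5C-G and 5C-C libraries fell below DMSO. The calls were those in 5C-G (-1.37 ± 0.17, adjusted p = 2.25e-05) and 5C-C (-1.20 ± 0.17, adjusted p = 7.69e-05), and they held under all 11 alternatives. The rise in 5C, 0.81 ± 0.16 (adjusted p = 0.00446), did not reach the fold threshold. Ces2c was called in 5C against DMSO alone, from 1.06 and 1.05 FPKM to 3.12 and 3.24 (1.52 ± 0.32, adjusted p = 0.00527), a call lost without DMSO A or without DMSO B (adjusted p of 0.0698 and 0.0744). Ces2e had 19.7 and 18 FPKM in 5C and 9.40 and 9.10 in 5C-E (-1.10 ± 0.19, adjusted p = 0.00229), and without 5C-E B its adjusted p was 0.0658. With the GC and length offset Ces2e in 5C-E was at -0.98, short of a call. Ces2f had at most 24 counts in a library and was not called.

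The flavin monooxygenases described next, Fmo1, Fmo2, Fmo4 and Fmo5, were each called lower in 5C-G than in 5C, while none of them was called in 5C against DMSO. Of these, Fmo1, Fmo2 and Fmo4 lie near each other on the minus strand of chromosome 1 (chr1:162620757-162641541 for Fmo4 to chr1:162701873-162726295 for Fmo2, GRCm39), and Fmo5 lies on chromosome 3.

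Fmo2 was the most abundant of them, with 125 and 109 FPKM in DMSO, 107 and 120 in 5C, 26.7 and 15.6 in 5C-G, 12.4 and 10.4 in 5C-C, 49.6 and 28.5 in 5C-E, 95.3 and 84.1 in 5C-F, and 84.9 in 5C-S. Every 5C-G, 5C-C and 5C-E library lay below every other library. The DMSO and 5C libraries overlapped, with a log2 fold change of -0.12 ± 0.24 (adjusted p = 0.872). Against 5C the log2 fold change was -2.31 ± 0.25 in 5C-G (adjusted p = 6.43e-06), -3.15 ± 0.26 in 5C-C (adjusted p = 1.03e-06) and -1.61 ± 0.24 in 5C-E (adjusted p = 0.000788). These 3 calls held under all 11 alternatives.

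Fmo5, which inserts oxygen next to carbonyl groups, was at 30.8 and 28.9 FPKM in DMSO and 55.7 and 48.8 in 5C, and at 8.77 and 7.72 in 5C-G, 12.2 and 11.3 in 5C-C, 20.2 and 13.2 in 5C-E, 41.0 and 32.6 in 5C-F, and 29.5 in 5C-S. It too was lowest without G, C or E, in each of the 6 libraries below DMSO. The calls were -2.53 ± 0.21 in 5C-G, -1.99 ± 0.21 in 5C-C and -1.72 ± 0.20 in 5C-E (adjusted p of 5.02e-07, 7.52e-06 and 8.67e-05), and all 3 held under the alternatives. Fmo1, a broad drug oxygenase, had 4.19 and 3.41 FPKM in DMSO, 4.29 and 3.76 in 5C, 1.39 and 1.74 in 5C-G, 0.577 and 0.550 in 5C-C, 1.77 and 0.831 in 5C-E, 3.25 and 2.73 in 5C-F, and 2.34 in 5C-S. Its fall was largest in 5C-C (-2.67 ± 0.32, adjusted p = 2.81e-05), followed by 5C-E (-1.70 ± 0.31, adjusted p = 0.00405) and 5C-G (-1.22 ± 0.30, adjusted p = 0.00698). With the GC and length offset, and with limma on log2(FPKM + 1), the call in 5C-G was lost. The call in 5C-E was lost without 5C-E B (-1.25, adjusted p = 0.113), and that in 5C-G without 5C A (-1.14, adjusted p = 0.0567) or without 5C-G A (-0.98, adjusted p = 0.0459). Fmo4 was scarce, at 1.14 and 0.931 FPKM in 5C and 0.327 and 0.162 in 5C-G (-1.97 ± 0.55, adjusted p = 0.0141), and its adjusted p was 0.0797 without 5C A and 0.146 without 5C-G B.

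**Figure D4:**
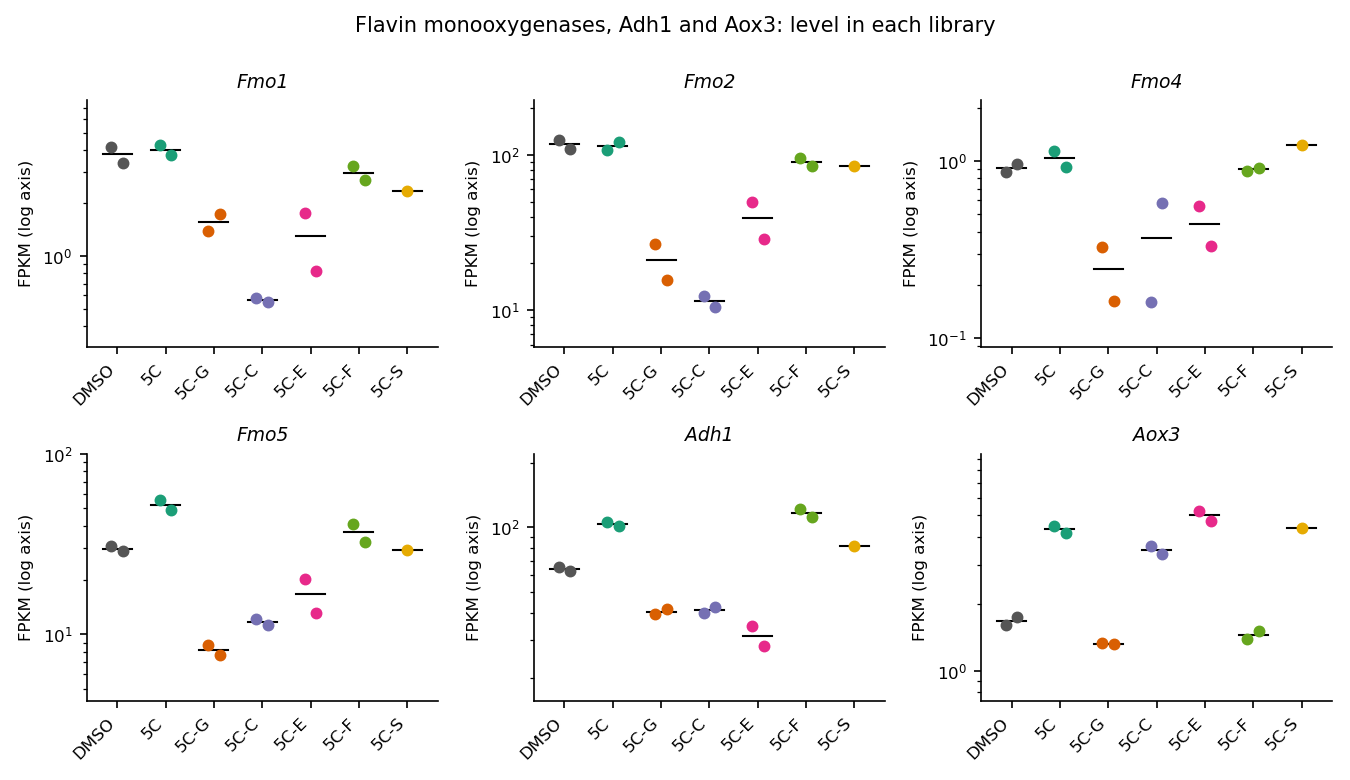
FPKM (log axis) of 4 flavin monooxygenase genes, Adh1 and Aox3 in each of the 13 libraries, by group; points are libraries and bars are group means. The libraries of 5C-G, 5C-C and 5C-E are the lowest for Fmo1, Fmo2, Fmo4 and Fmo5, and Aox3 is low in DMSO, 5C-G and 5C-F (1.32 to 1.74 FPKM).

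The aldo-keto reductases did not move as a family, and their median log2 fold changes were 0.31 in 5C against DMSO and, against 5C, -0.44 without G, -0.15 without C, -0.55 without E and 0.10 without F. The 7 Akr1c members lie in a cluster on chromosome 13, from Akr1c14 at chr13:4099002-4141081 to Akr1c20 at chr13:4536842-4573354 (GRCm39). Akr1a1, the aldehyde reductase of glucuronate, was the most abundant Akr1 gene, between 171 and 322 FPKM in all 13 libraries. It was not called, with its largest difference in 5C-C (0.91 ± 0.17, adjusted p = 0.000584).

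Akr1c18, which inactivates progesterone by reducing its side chain, had the largest rise on leaving out forskolin. It was at 1.63 and 1.97 FPKM in DMSO, 2.10 and 2.64 in 5C, 4.02 and 1.32 in 5C-G, 1.64 and 1.53 in 5C-C, 0.955 and 1.45 in 5C-E, 31.3 and 23.9 in 5C-F, and 4.01 in 5C-S. Outside 5C-F no library exceeded 4.02 FPKM, so both 5C-F libraries stood apart from the other 11. The rise was 12.5-fold (log2 3.64 ± 0.41, adjusted p = 9.49e-05), and it held under all 11 alternatives (3.08 to 3.86). In 5C against DMSO the value was 0.33 ± 0.39 (adjusted p = 0.749).

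Akr1c12 and Akr1c13 code for closely related reductases of the same cluster. Akr1c12 had 6.70 and 8.27 FPKM in DMSO, 10.1 and 9.96 in 5C, 5.94 and 6.34 in 5C-G, 7.55 and 8.11 in 5C-C, 5.23 and 4.83 in 5C-E, 19.3 and 20 in 5C-F, and 11.8 in 5C-S. It was thus highest in 5C-F and lowest in 5C-E. The log2 fold change was 1.07 ± 0.23 in 5C-F (adjusted p = 0.00865) and -1.07 ± 0.23 in 5C-E (adjusted p = 0.0166), both close to the fold threshold. With total counts alone they were 0.97 and -1.0, short of a call. Both calls were also lost with the GC and length offset and with limma on log2(FPKM + 1) and log2(FPKM + 0.1). The call in 5C-F was lost without 5C A or without 5C B (adjusted p of 0.0875 and 0.0920), and that in 5C-E without any 1 of the 4 libraries (0.129, 0.148, 0.0835 and 0.270 without 5C A, 5C B, 5C-E A and 5C-E B). Akr1c13 was likewise highest in 5C-F, at 57.3 and 47.8 FPKM against 31.8 and 28.8 in 5C, and was not called in any comparison.

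The upstream windows of these genes are shown because the 3 genes had their highest levels in 5C-F. In RefSeq (GRCm38.p6) they are chr13:4279400-4279649 (minus strand), chr13:4190937-4191186 (plus strand) and chr13:4150647-4150896 (minus strand). Capitals mark the bases of Akr1c12 and Akr1c13 without an identical partner when both are aligned.
Akr1c12: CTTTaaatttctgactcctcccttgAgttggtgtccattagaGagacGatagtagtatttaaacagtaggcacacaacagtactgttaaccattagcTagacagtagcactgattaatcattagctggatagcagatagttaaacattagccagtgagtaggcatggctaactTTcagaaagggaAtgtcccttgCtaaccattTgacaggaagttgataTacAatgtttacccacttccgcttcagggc
Akr1c13: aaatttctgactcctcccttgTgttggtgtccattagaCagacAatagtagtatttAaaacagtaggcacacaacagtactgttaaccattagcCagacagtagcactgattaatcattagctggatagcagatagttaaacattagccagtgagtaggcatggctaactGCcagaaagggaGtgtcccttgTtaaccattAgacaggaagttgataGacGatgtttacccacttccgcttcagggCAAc
Akr1c18: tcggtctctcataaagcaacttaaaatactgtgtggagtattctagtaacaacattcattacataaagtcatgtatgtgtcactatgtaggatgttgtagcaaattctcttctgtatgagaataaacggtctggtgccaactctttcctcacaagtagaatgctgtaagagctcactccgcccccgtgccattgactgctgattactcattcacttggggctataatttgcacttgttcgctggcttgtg
Akr1c12 and Akr1c13 shared 235 identical bases over 254 aligned positions (92.5%), and Akr1c18 was 51.2% identical to Akr1c12 and 50.8% to Akr1c13. Neither AGGTCA nor TGACG was found in the 3 windows. These windows lie before the start of the genes, and the likeness of the transcripts was not measured. Where the transcripts of Akr1c12 and Akr1c13 are alike they may share reads, which leaves the split between them uncertain.

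Akr1c6, which interconverts active and inactive sex steroids, was lowest without C or E. Its levels were 7.42 and 8.95 FPKM in DMSO, 6.96 and 7.22 in 5C, 4.65 and 5.05 in 5C-G, 0.244 and 0.453 in 5C-C, 0.297 and 0.286 in 5C-E, 4.19 and 3.44 in 5C-F, and 3.01 in 5C-S. The 5C-C and 5C-E libraries lay far below the other 9, which were at 3.01 FPKM or above. The fall was 17.5-fold in 5C-C (log2 -4.13 ± 0.34, adjusted p = 1.18e-06) and 25.4-fold in 5C-E (log2 -4.66 ± 0.36, adjusted p = 1.44e-06), and both calls held under all 11 alternatives. In 5C-G the difference was -0.41 ± 0.29 (adjusted p = 0.329), and in 5C against DMSO it was -0.28 ± 0.29 (adjusted p = 0.697). Its neighbour Akr1c20 was called lower in 5C-C (-2.05 ± 0.60, adjusted p = 0.0123) at 16 and 18 counts, and the call was lost without 5C A (adjusted p = 0.0528) or without 5C-C B (adjusted p = 0.0777).

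Akr1d1, the reductase that sets the bent steroid ring of bile acids, was at 1.07 and 1.13 FPKM in DMSO, 3.6 and 2.93 in 5C, 0.612 and 0.208 in 5C-G, 0.548 and 0.895 in 5C-C, 2.31 and 1.87 in 5C-E, 1.03 and 0.674 in 5C-F, and 2.75 in 5C-S. The 5C libraries were the highest, and those of 5C-G, 5C-C and 5C-F fell below DMSO. The calls against 5C were -2.90 ± 0.45 in 5C-G (adjusted p = 0.000250), -1.99 ± 0.43 in 5C-C (adjusted p = 0.00177) and -1.83 ± 0.43 in 5C-F (adjusted p = 0.0135). The last was lost without 5C A, 5C B or 5C-F B (adjusted p of 0.101, 0.0702 and 0.116). The rise in 5C, 1.49 ± 0.42 (adjusted p = 0.0425), was lost without any 1 of the 4 libraries (adjusted p of 0.284, 0.239, 0.254 and 0.123 without DMSO A, DMSO B, 5C A and 5C B).

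Akr1c14, a hydroxysteroid dehydrogenase, had 7.68 and 7.05 FPKM in DMSO, 9.70 and 11 in 5C, 5.02 and 1.94 in 5C-G, 3.66 and 2.55 in 5C-C, 4.04 and 3.99 in 5C-E, 9.45 and 6.07 in 5C-F, and 6.32 in 5C-S. The 5C-G libraries differed from each other by a larger ratio than those of any other group, and both lay below 5C. The log2 fold change was -1.48 ± 0.32 in 5C-G, -1.58 ± 0.32 in 5C-C and -1.43 ± 0.32 in 5C-E (adjusted p of 0.00301, 0.00117 and 0.0194). With the GC and length offset the first was -0.94 and the second -0.79. The call in 5C-E was lost without any 1 of the 4 libraries (adjusted p of 0.0862, 0.196, 0.114 and 0.254 without 5C A, 5C B, 5C-E A and 5C-E B), and that in 5C-G without 5C-G B (-1.0).

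Akr1c19 was scarce, with 0.830 and 1.06 FPKM in DMSO, 2.24 and 2.08 in 5C, 0.928 and 0.729 in 5C-G, 0.752 and 0.748 in 5C-C, 1.07 and 0.852 in 5C-E, 2.68 and 2.65 in 5C-F, and 2.14 in 5C-S. Its libraries fell into a high set (5C, 5C-F and 5C-S, above 2 FPKM) and a low set (the others, near 1 FPKM or less). The log2 fold change was 1.12 ± 0.26 in 5C (adjusted p = 0.0122), -1.25 ± 0.26 in 5C-G (adjusted p = 0.00222), -1.36 ± 0.26 in 5C-C (adjusted p = 0.000760) and -1.23 ± 0.26 in 5C-E (adjusted p = 0.0131). With the GC and length offset the call in 5C was lost (0.99), as were those in 5C-G (-0.70) and 5C-C (-0.59). The call in 5C was also lost without each of DMSO A, DMSO B, 5C A and 5C B (adjusted p of 0.218, 0.0572, 0.104 and 0.07), and that in 5C-E without 5C A, 5C B or 5C-E B (adjusted p of 0.129, 0.101 and 0.285). Akr1b7, which clears aldehydes from lipids, was called higher in 5C (3.59 ± 0.88, adjusted p = 0.0175) on 2 and 7 counts in DMSO and 33 and 78 in 5C, and lost the call without DMSO A (adjusted p = 0.242) or without 5C B (adjusted p = 0.205).

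**Figure D5:**
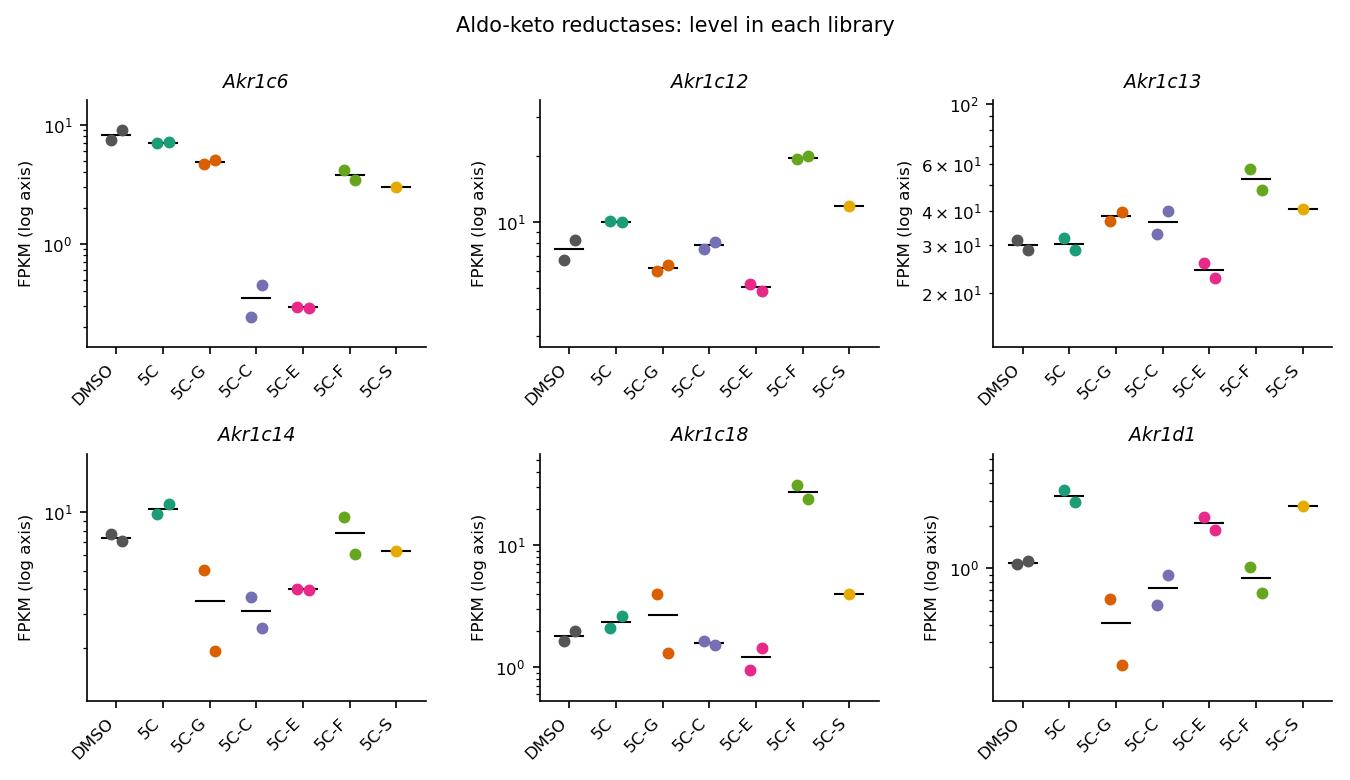
FPKM (log axis) of 6 aldo-keto reductase genes in each of the 13 libraries, by group; points are libraries and bars are group means. Akr1c18 stands apart in 5C-F (31.3 and 23.9 FPKM), Akr1c6 drops below 0.5 FPKM in 5C-C and 5C-E, and Akr1d1 is highest in 5C.

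Of the alcohol dehydrogenases, which lie together on chromosome 3, Adh1 was called. This is the class I enzyme, which oxidises ethanol and retinol, and it lies at chr3:137966752-137996462 (GRCm39). It was at 65.7 and 63.0 FPKM in DMSO, 106 and 101 in 5C, 39.5 and 41.8 in 5C-G, 40.1 and 42.9 in 5C-C, 34.7 and 28.2 in 5C-E, 122 and 112 in 5C-F, and 82.1 in 5C-S. The 6 libraries without G, C or E lay below DMSO, and those of 5C and 5C-F above it. Its log2 fold change against 5C was -1.21 ± 0.17 in 5C-G (adjusted p = 0.000111), -1.16 ± 0.17 in 5C-C (adjusted p = 0.000133) and -1.79 ± 0.18 in 5C-E (adjusted p = 1.09e-05), and these calls held under all 11 alternatives. Relative to DMSO the value in 5C was 0.61 ± 0.17 (adjusted p = 0.0395), short of the fold threshold. Adh5, which clears formaldehyde bound to glutathione, stayed between 18.5 and 28.0 FPKM in all libraries, Adh4 lay between 0.906 and 2.95 FPKM, and Adh7 had at most 62 counts. These 3 did not pass the test in any comparison.

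The 17 aldehyde dehydrogenases had a median log2 fold change of 0.19 in 5C against DMSO. Against 5C it was -0.76 without G, -0.27 without C, -0.27 without E and 0.00 without F. Over all genes these medians lay between -0.01 and 0.01. Aldh1a1, which makes retinoic acid from retinal, was the most abundant, with 273 and 269 FPKM in DMSO, 283 and 288 in 5C, 290 and 264 in 5C-G, 147 and 123 in 5C-C, 204 and 153 in 5C-E, 318 and 262 in 5C-F, and 258 in 5C-S. It was lowest in 5C-C, where the log2 fold change of -0.92 ± 0.17 (adjusted p = 0.000691) fell short of the fold threshold. Its neighbour Aldh1a7, a close relative, had 24.3 and 21.4 FPKM in DMSO, 49.7 and 44.8 in 5C, 22.1 and 19.6 in 5C-G, 22.3 and 14.5 in 5C-C, 19.5 and 20.7 in 5C-E, 67.9 and 48.6 in 5C-F, and 34.7 in 5C-S. The libraries without G, C or E, at 22.3 FPKM or less, overlapped with DMSO or lay below it. It was called lower in 5C-G (-1.05 ± 0.21, adjusted p = 0.00198), 5C-C (-1.20 ± 0.21, adjusted p = 0.000446) and 5C-E (-1.30 ± 0.22, adjusted p = 0.00188). With the GC and length offset the values in 5C-G and 5C-C were -0.46 and -0.43, and the calls were also lost without 5C A (-0.99) and without 5C-C B (-0.94), while the call in 5C-E held under all 11 alternatives.

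Aldh8a1, an enzyme of tryptophan breakdown, was at 4.35 and 4.40 FPKM in DMSO, 6.65 and 6.45 in 5C, 1.69 and 2.53 in 5C-G, 2.89 and 1.82 in 5C-C, 3.55 and 2.23 in 5C-E, 4.49 and 3.46 in 5C-F, and 5.01 in 5C-S. All 6 libraries without G, C or E lay below DMSO. It was called lower in 5C-G (-1.48 ± 0.30, adjusted p = 0.00181), 5C-C (-1.32 ± 0.30, adjusted p = 0.00233) and 5C-E (-1.25 ± 0.30, adjusted p = 0.0267), and the last call was lost without 5C A, 5C B or 5C-E B (adjusted p of 0.168, 0.187 and 0.498). In 5C-G the calls also took in mitochondrial enzymes: Aldh6a1, of valine breakdown (-1.10 ± 0.22, adjusted p = 0.00151), Aldh5a1, of the breakdown of the transmitter GABA (-1.11 ± 0.28, adjusted p = 0.00717), and Aldh1l2, of folate metabolism (-1.45 ± 0.47, adjusted p = 0.0307). These 3 calls were lost without 5C-G B (log2 fold changes of -0.99, -1.04 and -1.22), and with the GC and length offset (-0.80, -0.61 and -1.17). That of Aldh1l2 was also lost without 5C A (adjusted p = 0.0637) or without 5C B (adjusted p = 0.146).

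The opposite way went Aldh1a2 in 5C-C and Aldh3b1 in 5C-G and 5C-C. Aldh1a2, a retinoic acid synthase of mesenchymal cells, had 11.4 and 12.6 FPKM in DMSO, 9.49 and 9.98 in 5C, 5.01 and 5.16 in 5C-G, 20.7 and 19.7 in 5C-C, 14.6 and 15.2 in 5C-E, 5.40 and 7.44 in 5C-F, and 11.2 in 5C-S. It was highest in 5C-C (1.22 ± 0.20, adjusted p = 0.000212) and lowest in 5C-G. The summed level of 8 markers of stellate cells and fibroblasts was 1010 to 1020 FPKM in DMSO, 1230 to 1250 in 5C, 1200 to 1350 in 5C-G, 1330 to 1560 in 5C-C, 1620 to 1770 in 5C-E, 792 to 875 in 5C-F and 1470 in 5C-S. It was thus highest in 5C-E, not in 5C-C, and its part in this result was not tested. Aldh3b1, which oxidises aldehydes of lipid peroxidation, was at 23.5 and 21.6 FPKM in DMSO, 15.4 in both 5C libraries, 25.3 and 34.6 in 5C-G, 26.2 and 31.9 in 5C-C, 15.5 and 18.7 in 5C-E, 16.0 and 24.1 in 5C-F, and 19.7 in 5C-S. The summed level of the macrophage markers (given above) was higher in all other groups than in 5C. Among them were DMSO, 5C-G and 5C-C, where Aldh3b1 was high, and also 5C-E, where it was near its 5C level. In 5C-F the sum was 842 to 1100 FPKM and 7 of the 8 markers were called higher. Aldh3b1, at 16.0 and 24.1 FPKM, was not called there. In 5C-C 4 of the 8 markers were called higher. Adgre1 (10.1 and 8.25 FPKM) lay below its 5C level (11.5 and 12.6) there, as did Vsig4 (28.0 and 21.0 against 38.2 and 37.4). The part of these markers was not tested. The calls of Aldh3b1, 1.11 ± 0.23 in 5C-G (adjusted p = 0.00220) and 1.08 ± 0.23 in 5C-C (adjusted p = 0.00157), lay close to the fold threshold. They were lost with total counts alone (0.96 and 0.92), without 5C-G B (0.76) and without 5C-C B (0.90). Both were also lost with the GC and length offset and with limma on log2(FPKM + 1) and log2(FPKM + 0.1). Aldh1a3, the remaining retinal dehydrogenase, had 67 and 80 counts in 5C and 4 and 28 in 5C-C (-2.40 ± 0.85, adjusted p = 0.0354), a call lost without 5C A, 5C B or 5C-C A (adjusted p of 0.0766, 0.148 and 0.173).

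The aldehyde oxidases, which hydroxylate aromatic nitrogen rings of drugs, lie in a row on chromosome 1 from Aox1 (chr1:58068908-58145995) through Aox3 to Aox4 (chr1:58249511-58307760, GRCm39). Aox3, the main hepatic form in mice, was at 1.60 and 1.74 FPKM in DMSO, 4.46 and 4.18 in 5C, 1.33 and 1.32 in 5C-G, 3.62 and 3.36 in 5C-C, 5.25 and 4.73 in 5C-E, 1.39 and 1.51 in 5C-F, and 4.37 in 5C-S. The libraries without G or F fell just below DMSO, and those without C, E or S stayed at 3.36 FPKM or above. Its log2 fold change was 1.30 ± 0.20 in 5C (adjusted p = 0.000268), -1.57 ± 0.20 in 5C-G (adjusted p = 3.09e-05) and -1.48 ± 0.20 in 5C-F (adjusted p = 0.000418), beside -0.15 ± 0.19 in 5C-C (adjusted p = 0.599) and 0.14 ± 0.19 in 5C-E (adjusted p = 0.810). The calls in 5C-G and 5C-F held under all 11 alternatives.

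Aox1 had 2.94 and 1.90 FPKM in DMSO, 4.84 and 4.59 in 5C, 2.66 and 1.66 in 5C-G, 1.36 and 1.53 in 5C-C, 4.10 and 4.86 in 5C-E, 3.10 and 3.62 in 5C-F, and 4.20 in 5C-S. It was called lower in 5C-C (-1.54 ± 0.24, adjusted p = 0.000153) and in 5C-G (-1.01 ± 0.23, adjusted p = 0.00437), and with the GC and length offset these values were -0.97 and -0.61, short of a call. The call in 5C-G was also lost without 5C A (-0.99) or without 5C-G B (-0.78). Aox4 had 8 and 2 counts in DMSO, 4 and 0 in 5C-G, 0 and 6 in 5C-F and 20 in 5C-S. In 5C-E it had 17 and 32 counts, above 5C in both libraries, and was not called. It was close to absent in 5C, with 2 and 4 counts, and had 85 and 68 counts in 5C-C (4.61 ± 1.38, adjusted p = 0.0146). That call was lost without 5C A, 5C B or 5C-C A (adjusted p of 0.110, 0.0616 and 0.0650).

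Leaving out Salidroside gave 1 library and no test. Beyond a log2 fold change of 1 from the mean of 5C, 5 members were lower and 1 was higher, which is 9.43% and 1.89%, beside 10.6% and 8.30% of all genes tested. Both shares lie at or below those of all genes. The 5 were Akr1c20 and Akr1c6 (-1.25) and the low-count genes Ces1e, Ces1f and Ces2f, and the 1 was Aox4, at 20 counts. Ces1c, Ces1d and Ces1g were lower by less than this fold, at -0.93, -0.76 and -0.75.

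The genes of related enzymes were taken from a list of 30 symbols outside the families, of which 29 were tested. Leaving out E lowered 8 of them, Aadac, Bche, Dmgdh, Dpyd, Ephx2, Pon1, Rdh16 and Rdh7 (27.6%, beside the 1.31% of all genes given above), and raised none by edgeR. Of these 8 calls 7 were lost without 5C-E B, all but that of Pon1, 5 without 5C B and 4 without 5C A, and those of Bche and Ephx2 were each lost under 7 of 11 alternatives. Here Pon1, a lactonase and esterase secreted with HDL, changed by -4.04 ± 0.52 (adjusted p = 0.000169) and Aadac, a microsomal esterase, by -2.01 ± 0.32 (adjusted p = 0.00125). Without C, 6 were lower (20.7%, beside 10.5% of all genes), with Pon1 at -5.67 ± 0.59 (adjusted p = 7.52e-06). Pon1 was at 0 and 0.197 FPKM in 5C-C, against 5.81 and 7.08 in 5C, so the size of that fall is uncertain. It ran from -12.29 to -2.76 across the alternatives. In 5C-C 3 carbonyl or aldehyde reductases, Akr7a5, Cbr1 and Cbr3, were higher (1.57, 1.12 and 1.37). This is 10.3% of the list beside 9.65% of all genes. Without G, 6 were lower (20.7%, beside 5.64% of all genes), among them Dpyd, which breaks down pyrimidines (-2.37 ± 0.28, adjusted p = 1.95e-05), and Maob, a monoamine oxidase (-1.31 ± 0.24, adjusted p = 0.000874). Relative to DMSO, 5C raised Hsd11b1, which reactivates glucocorticoid (1.16 ± 0.18, adjusted p = 0.000395), and the quinone reductase Nqo1 (1.52 ± 0.36, adjusted p = 0.0140). Without F, Akr7a5 was higher (1.26 ± 0.24, adjusted p = 0.00464) and no listed gene was called lower by edgeR. Of the 26 calls on this list 11 held under every alternative, among them those of Pon1 in 5C-G, 5C-C and 5C-E and those of Dpyd and Maob in 5C-G. Nqo1 lost its call without DMSO A, DMSO B or 5C B (adjusted p of 0.107, 0.150 and 0.129), Hsd11b1 without DMSO B or with the GC and length offset (0.97 on the log2 scale in both), and Akr7a5 in 5C-F without 5C A or 5C B (adjusted p of 0.0526 and 0.0770) or with that offset. With the GC and length offset the values of Akr7a5, Cbr1 and Cbr3 in 5C-C were 0.76, 0.77 and 0.45, short of a call, as was that of Aadac (-0.91).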

How the data were processed

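The libraries of 7 groups were made from total RNA with the NEBNext Ultra kit and sequenced as paired ends by a company. The reads were mapped to GRCm39, and the authors deposited gene counts, which are whole numbers, and FPKM values, which are the same counts per gene length and library total (1 implied length within 0.2% for all 27140 genes shared by the tables). The submitters' processing notes name featureCounts, Subread and DESeq2. Aligner, annotation release and strand setting were not given in the sources used here. Groups came from the labels. Column numbers could not be matched to single samples, so A and B follow column order and pair nothing.

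Counts were tested with edgeR 4.0.16 in R 4.3.3: TMM factors, filterByExpr (minimum count 10), glmQLFit and glmQLFTest on all 13 libraries with 1 mean per group, a biological coefficient of variation of 0.261 and 6 residual degrees of freedom. A call needed an adjusted p under 0.05 and a log2 fold change beyond 1. The SE printed is the size of the log2 fold change divided by the square root of the test's F statistic. The script was tested on simulated data. Levels are FPKM as deposited. A gene with 3 or fewer counts in every library of a group got a bound or a 95% exact counting ratio in place of a fold. Symbols given in the text are those of the count table, with coordinates from GENCODE on GRCm39 and upstream windows from RefSeq on GRCm38.p6, which was not converted.

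Named with values in every library were members called in at least 3 of the 5 tested comparisons, the 3 largest rises and falls called in each, and the member of each family with the highest mean FPKM. Of these, Akr1a1 is given by its range. Other called members are given more briefly, and 1 member, included in the counts, is not reported here. Members and lists were chosen with earlier results of these data known. Alternatives were DESeq2 1.42.0, limma 3.58.1 on log2(FPKM + 1) and log2(FPKM + 0.1), total counts alone, no filter, the 2 groups alone, each library left out and, added after seeing the data, an offset for GC content and length. The 11 alternatives per call are these.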

Additional observations from a re-analysis of the deposited data

How the results depend on the processing

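No call of a named member changed direction. Of 66 such calls 35 held under all 11 alternatives, and of all 726 combinations 109 lost the call. The most losses came with limma on log2(FPKM + 1), 17 of 66, and without 5C A or 5C B, 16 of 66 each. DESeq2 lost 1 and the fit on the 2 groups alone 0. With the GC and length offset 14 were lost.

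Counts of members moved by over 1.5 times as follows. Called lower in 5C against DMSO was 0 with limma on log2(FPKM + 0.1) in place of 1. Called higher in 5C-G was 0 with total counts alone and with limma at either pseudocount in place of 1, and called lower was 13 with the GC and length offset in place of 20. Called higher in 5C-C was 0 with limma on log2(FPKM + 1) in place of 3. Called higher in 5C-E was 1 at an unadjusted p in place of 0. Called higher in 5C-F was 1 with limma at either pseudocount in place of 3. In 5C-S the log2 ratio of FPKM + 1 gave 0 higher and 1 lower, in place of 1 and 5. Leaving out single libraries gave ranges of 6 to 7 higher and 0 to 1 lower in 5C against DMSO, 0 to 3 higher and 13 to 19 lower in 5C-G, 2 to 3 higher and 16 to 21 lower in 5C-C, 0 higher and 8 to 12 lower in 5C-E, 1 to 3 higher and 2 to 4 lower in 5C-F, and 1 to 2 higher and 6 to 7 lower in 5C-S. Leaving out a library of a pair rests on the other varying as the remaining groups do. The causes of these moves were not tested.

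No paired analysis was possible because no 2 groups compared share replicate numbers in the labels, and columns could not be matched to single samples. With 2 libraries a group, small changes are hard to detect, and members with few counts (Ces1e, Ces1f, Ces2f, Aox4, Akr1b7) are poorly measured.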
